A study of Homo sapiens with 15 samples.

Results

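The 10 genes described here encode lysosomal hydrolases that take apart the sugar chains of glycosaminoglycans, glycoproteins and glycogen: IDS, IDUA, SGSH, NAGLU, GUSB, MAN2B1, MANBA, FUCA1, AGA and GAA. They were chosen by function and found by gene name among the 60107 gene identifiers of the series, where they took up 11 identifiers because IDS was listed under a second one. Their levels were measured by RNA-seq in MIA PaCa-2, a line from a human carcinoma of the pancreas, in 5 groups of 3 libraries. The groups were Ctrl (the vehicle control, without agent), Lys05, BAQ12, BAQ13 and BAQ12O. Lys05 is a dimeric chloroquine derivative, a bisaminoquinoline that accumulates in lysosomes and blocks autophagy. BAQ12 and BAQ13 are bisaminoquinolines with a lipophilic tail that assemble into nanoparticles, and they differ by a methylene unit. The study's text does not say what BAQ12O is. The study's methods give 5 µM for 24 h for the treated cells, without naming BAQ12O, whose dose was therefore taken as the same but is not given by name. All groups were the same unmodified line, and nothing in the labels says whether the 3 libraries of a group came from separate cultures, so p-values here measure the spread between libraries, which may be technical.

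These enzymes work in the acidic lumen of the lysosome. Most are exoenzymes that each remove 1 kind of sugar or sulphate from the end of a chain before the next enzyme can act. AGA instead splits the bond between the sugar chain and asparagine. They are made in the endoplasmic reticulum and most of them are sent to lysosomes by a mannose 6-phosphate tag. Inherited loss of each one gives a lysosomal storage disease, among them Hunter (IDS), Hurler (IDUA), Sanfilippo A (SGSH), Sanfilippo B (NAGLU), Sly (GUSB) and Pompe disease (GAA). Many lysosomal genes carry a CACGTG motif in their promoters, the core of the site bound by TFEB and its relatives, the transcription factors that raise lysosomal gene expression when lysosomes are stressed.

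None of the 10 mRNAs differed between any 2 groups at an adjusted p under 0.05. The 3 best measured, IDS, GAA and GUSB, lay close to the vehicle level. Across the 4 agents their changes lay between −0.03 and 0.32 on the log2 scale, and in all 12 cases the 95% confidence interval excluded a 2-fold change in either direction. In 1 of these cases, GAA with Lys05, the interval excluded 0 (0.01 to 0.63, limma adjusted p = 0.98). NAGLU, MANBA and SGSH had group means up to 2.08 times apart, but at 9.4 to 17.8 reads per library their intervals against Ctrl were wide, with upper ends of up to 3.35-fold. Those of NAGLU with BAQ12 and BAQ13 and of MANBA with Lys05 excluded 0, without adjustment for the number of genes. FUCA1 had group means on both sides of the Ctrl mean and AGA had its highest mean in Ctrl, and all their intervals against Ctrl included 0. MAN2B1 and IDUA were at or near 0 reads in every group and could not be compared at this depth.

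Changes are given on the scale of log2(normalised read count + 1), as the first group minus the second, with limma's standard error (SE) and 95% confidence interval. That scale understates the change of genes with few reads. A gene was called at an adjusted p under 0.05, Benjamini-Hochberg adjusted over the 10495 genes tested. In bulk RNA, fewer cells that express a gene and less of its RNA per cell cannot be told apart. Levels were compared between groups and not between genes, since the sources disagree on whether the libraries covered whole transcripts or their 3′ ends.

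**Figure D1:**
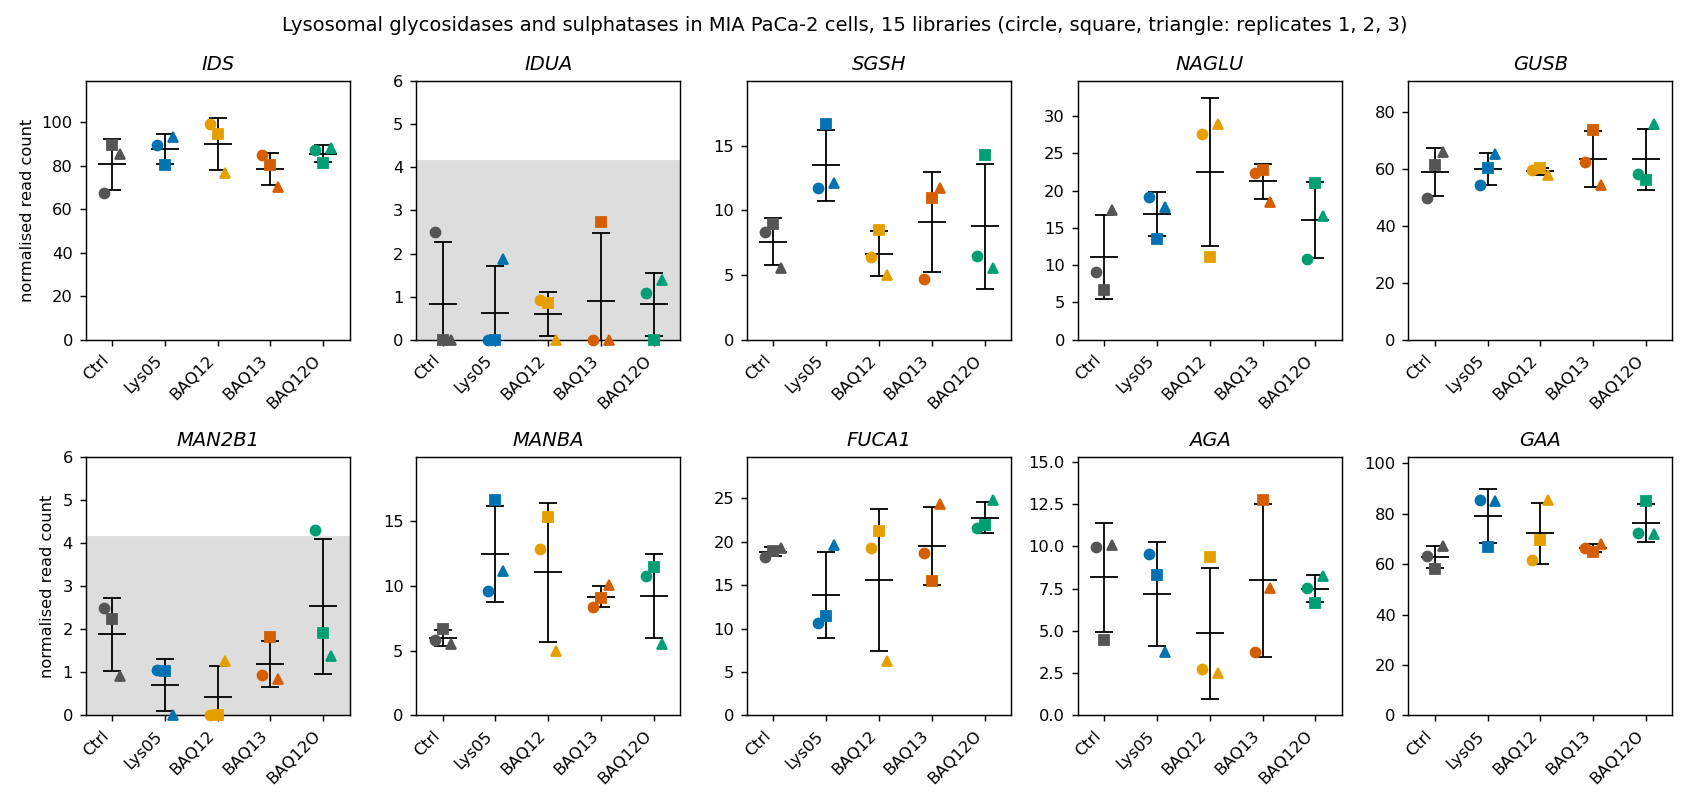
Normalised read counts (vertical axes, each from 0) of the 10 genes in the 15 libraries, by group on the horizontal axes. Circles, squares and triangles are replicates 1, 2 and 3, and black bars are the mean ± SD of 3 libraries. The grey band in the IDUA and MAN2B1 panels marks values up to 4.14, the level of 3 reads in the shallowest library. The 5 groups of IDS and GUSB overlap, and IDUA never leaves the band.

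The libraries held 1586566 to 2500551 reads on genes (median 2230594), of which 214 to 342 per library, or 0.0114 to 0.0149%, fell on the 10 genes. IDS, GAA and GUSB took 77.1% of these 4281 reads. The limit that a count of 0 allows, 3 reads, corresponded to normalised counts of 2.49 to 4.14, and this limit covers counting error only. BAQ12 replicate 3 stood apart, with a median correlation of 0.937 with the other libraries against 0.965 to 0.98 for the rest, and several BAQ12 values below are also given without it. Mitochondrially encoded mRNA took 5.93 to 6.1% of reads in Ctrl, 1.33 to 1.41% with Lys05, 1.7 to 2.13% with BAQ12, 2.22 to 2.44% with BAQ13 and 3.64 to 3.99% with BAQ12O, and its part in the values below was not tested. The labels call the cells epithelial, and of 6 epithelial markers all had reads, but EPCAM and KRT7 did not exceed 3 reads in any library, while the mesenchymal gene VIM was abundant. The summed epithelial markers came to 1714.7 to 1795 in Ctrl and 1361.6 to 1573.8 with the agents, and the summed fibroblast markers to 259.1 to 290.1 and 175.2 to 242.6, and the part of these shifts in the values below was not tested either. Of the haematopoietic markers CD3E was at 0, of 6 fibroblast markers DCN and LUM were at 0, and of 3 endothelial markers PECAM1 was at 0.

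Summed over the 10 genes, normalised counts were 236.6, 256.8 and 277.2 in Ctrl. They were 290.7, 274.9 and 309.9 with Lys05, 289.8, 290.7 and 268.8 with BAQ12, 272.5, 294.4 and 265.7 with BAQ13, and 280.3, 299.4 and 299.2 with BAQ12O. The lowest sum was a Ctrl library and the highest a Lys05 library. The BAQ12O values lay above all 3 Ctrl values, and the other agents overlapped with Ctrl. The sum is mostly IDS, GAA and GUSB, and no test was made of it.

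IDS, IDUA, SGSH, NAGLU and GUSB act on glycosaminoglycans. IDS, iduronate-2-sulphatase, removes the 2-sulphate of iduronic acid in dermatan and heparan sulphate and lies at chrX:149476990-149521096 on the minus strand (GRCh38). Its normalised counts were 67.25, 89.3 and 85.4 in Ctrl, 89.4, 80.2 and 93.3 with Lys05, and 99.05, 94.3 and 76.6 with BAQ12. They were 84.9, 80.2 and 70.4 with BAQ13 and 87.3, 81.04 and 88.2 with BAQ12O. All 5 groups overlapped, and the lowest library of all was a Ctrl library. Group means ranged from 78.5 (BAQ13) to 90.01 (BAQ12), a ratio of 1.15, and no neighbours in that order differed beyond their spread. Against Ctrl the log2 change was 0.13 with Lys05 (interval −0.17 to 0.42), 0.16 with BAQ12 (−0.14 to 0.46), −0.03 with BAQ13 (−0.33 to 0.26) and 0.09 with BAQ12O (−0.20 to 0.39). Without BAQ12 replicate 3 the BAQ12 value was 0.27 (limma adjusted p = 0.61). The second identifier listed as IDS held 0 reads in all 15 libraries. GENCODE 29 calls that one AC244197.3, a protein-coding locus on the same strand that shares 1529 exonic bases with IDS, so reads in the shared bases may not have been assigned to either.

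GUSB, β-glucuronidase, removes glucuronic acid from the chain end and is often used as a reference gene in quantitative PCR. It lies at chr7:65960684-65982314 on the minus strand. In normalised counts it had 49.8, 61.4 and 66.1 in Ctrl, 54.3, 60.4 and 65.3 with Lys05, and 59.6, 60.3 and 57.8 with BAQ12. They were 62.5, 73.8 and 54.5 with BAQ13 and 58.2, 56.2 and 75.8 with BAQ12O. The groups overlapped throughout, and GUSB had the smallest ratio of highest to lowest group mean of the tested members, 1.08. The 4 log2 changes against Ctrl lay between 0.01 (BAQ12, interval −0.33 to 0.35) and 0.10 (BAQ13, interval −0.23 to 0.44). The files list 11 GUSB pseudogenes, 5 of them with reads (106 in total over the 15 libraries, at most 10 in one), so a small part of GUSB reads may have been split with these copies.

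NAGLU, α-N-acetylglucosaminidase, removes N-acetylglucosamine from heparan sulphate. It lies at chr17:42536172-42544449 on the plus strand. Its normalised counts were 9.13, 6.7 and 17.4 in Ctrl, 19.2, 13.5 and 17.7 with Lys05, and 27.5, 11.05 and 28.9 with BAQ12. They were 22.4, 22.8 and 18.4 with BAQ13 and 10.8, 21.0 and 16.5 with BAQ12O. Only the BAQ13 libraries all lay above the highest Ctrl library, at 18.4 or more against 17.4, while Lys05 and BAQ12 each had 1 library within the Ctrl range and BAQ12O had 2. The means were 11.1 ± 5.63 in Ctrl, 16.1 ± 5.11 with BAQ12O, 16.8 ± 2.93 with Lys05, 21.2 ± 2.41 with BAQ13 and 22.5 ± 9.93 with BAQ12 (SD, n = 3). The log2 change was 0.97 with BAQ13 (SE 0.37, interval 0.20 to 1.74, limma adjusted p = 0.14) and 0.94 with BAQ12 (SE 0.37, interval 0.17 to 1.72, limma adjusted p = 0.33). With Lys05 it was 0.64 (interval −0.13 to 1.42) and with BAQ12O 0.55 (interval −0.22 to 1.32). Without BAQ12 replicate 3 the limma adjusted p for BAQ13 came to 0.051, the smallest of any member in any comparison or alternative, and the log2 change with BAQ12 to 0.71 (limma adjusted p = 0.59). NAGLU libraries spread more than counting error alone gives, with a variance 2.04 times the Poisson expectation within groups against a median of 1.21 over genes of 5 to 100 mean reads.

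SGSH, N-sulphoglucosamine sulphohydrolase, removes the N-sulphate of heparan sulphate. It lies at chr17:80206716-80220923 on the minus strand. In normalised counts it had 8.3, 8.93 and 5.51 in Ctrl, 11.7, 16.7 and 12.1 with Lys05, and 6.42, 8.5 and 5.02 with BAQ12. They were 4.67, 10.9 and 11.7 with BAQ13 and 6.47, 14.3 and 5.51 with BAQ12O. All 3 Lys05 libraries lay above every Ctrl and every BAQ12 library, and the other groups overlapped with Ctrl. Against Ctrl the log2 change with Lys05 was 0.77 (SE 0.39, interval −0.05 to 1.58, limma adjusted p = 1). With BAQ12 it was −0.17, with BAQ13 0.17 and with BAQ12O 0.10, each with an interval that reached at least 0.64 on both sides of 0. The BAQ12 value was −0.008 without replicate 3. In GENCODE 29, 30.6% of the last 500 exonic bases of SGSH overlap CARD14 on the opposite strand, and CARD14 itself held 0 reads.

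IDUA, α-L-iduronidase, acts on the chain end that IDS leaves. It lies at chr4:986997-1004506 on the plus strand. It held 12 reads over all 15 libraries, 0 in 8 of them and at most 3 in any, so it did not pass the filter on low counts. By group it held 3 reads in Ctrl, 2 with Lys05, 2 with BAQ12, 3 with BAQ13 and 2 with BAQ12O, all in the range of 3 reads that a count of 0 allows.

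MAN2B1, MANBA, FUCA1 and AGA act on the sugar chains of glycoproteins. MANBA, β-mannosidase, cleaves the last mannose next to the chitobiose core and lies at chr4:102630770-102760994 on the minus strand. It had normalised counts of 5.81, 6.7 and 5.51 in Ctrl, 9.58, 16.7 and 11.2 with Lys05, and 12.8, 15.3 and 5.02 with BAQ12. They were 8.4, 9.11 and 10.1 with BAQ13 and 10.8, 11.4 and 5.51 with BAQ12O. The Lys05 and BAQ13 libraries all lay above the Ctrl libraries, while BAQ12 and BAQ12O each had replicate 3 within or below the Ctrl range. In reads this was 6 to 7 per Ctrl library against 9 to 16 with Lys05 and 9 to 12 with BAQ13. The log2 change was 0.91 with Lys05 (SE 0.37, interval 0.13 to 1.70, limma adjusted p = 0.88), 0.66 with BAQ12, 0.54 with BAQ13 and 0.49 with BAQ12O, and the last 3 intervals included 0. Without BAQ12 replicate 3 the BAQ12 value was 1.10 (limma adjusted p = 0.22), and without replicate 2 it was 0.39 (limma adjusted p = 0.64).

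FUCA1, the α-L-fucosidase of lysosomes, removes fucose. It lies at chr1:23845077-23868294 on the minus strand. Its normalised counts were 18.3, 19.0 and 19.3 in Ctrl, 10.7, 11.5 and 19.6 with Lys05, and 19.3, 21.2 and 6.28 with BAQ12. They were 18.7, 15.5 and 24.3 with BAQ13 and 21.6, 21.9 and 24.8 with BAQ12O. The BAQ12O libraries lay above all those of Ctrl, Lys05 and BAQ12, though the nearest values, 21.6 and 21.2, came from 20 and 25 reads. The log2 change against Ctrl was −0.46 with Lys05 (interval −1.20 to 0.27), −0.42 with BAQ12 (−1.15 to 0.32), 0.02 with BAQ13 (−0.71 to 0.76) and 0.26 with BAQ12O (−0.48 to 0.99). The BAQ12 value rested on replicate 3, and without it was 0.10.

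AGA, aspartylglucosaminidase, splits the bond between the sugar chain and asparagine. It lies at chr4:177430770-177442503 on the minus strand. It had normalised counts of 9.96, 4.47 and 10.1 in Ctrl, 9.58, 8.33 and 3.73 with Lys05, and 2.75, 9.35 and 2.51 with BAQ12. They were 3.73, 12.8 and 7.54 with BAQ13 and 7.55, 6.67 and 8.27 with BAQ12O. BAQ12 replicates 1 and 3, at 3 and 2 reads, lay below every other library, while replicate 2 was in the Ctrl range. All groups overlapped, and the log2 change with BAQ12 was −0.76 (SE 0.49, interval −1.79 to 0.27, limma adjusted p = 0.53), with −0.49 without replicate 3 (limma adjusted p = 0.87) and −1.27 without replicate 2 (limma adjusted p = 0.24). The other 3 agents gave −0.17, −0.09 and −0.04, with intervals from −1.20 to 0.99.

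MAN2B1, the lysosomal α-mannosidase, held 20 reads in all, at most 4 in 1 library and no more than 3 in the other 14, and did not pass the filter. It lies at chr19:12646511-12666742 on the minus strand. By group it held 6 reads in Ctrl, 2 with Lys05, 1 with BAQ12, 4 with BAQ13 and 7 with BAQ12O, so no fold is given. In GENCODE 29 it shares 65% of its last 500 exonic bases on the same strand with AC010422.3, which held 50 reads, so reads of the gene's 3′ end may have been left unassigned or assigned there.

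GAA, acid α-glucosidase, degrades glycogen in the lysosome. It lies at chr17:80101556-80119879 on the plus strand. Its normalised counts were 63.1, 58.1 and 67.01 in Ctrl, 85.2, 66.7 and 84.9 with Lys05, and 61.4, 69.7 and 85.4 with BAQ12. They were 66.2, 64.7 and 67.9 with BAQ13 and 72.2, 84.8 and 71.7 with BAQ12O. The BAQ12O libraries lay above all Ctrl and all BAQ13 libraries, and the Lys05 group overlapped with Ctrl through 1 library, at 66.65 against a highest Ctrl value of 67.01. The means rose in the order 62.7 ± 4.48 (Ctrl), 66.3 ± 1.59 (BAQ13), 72.2 ± 12.2 (BAQ12), 76.3 ± 7.45 (BAQ12O) and 78.9 ± 10.6 (Lys05; SD, n = 3), with no neighbours in that order apart beyond their spread. The log2 change was 0.32 with Lys05 (SE 0.15, interval 0.01 to 0.63, limma adjusted p = 0.98) and 0.28 with BAQ12O (SE 0.15, interval −0.03 to 0.58, limma adjusted p = 0.45). It was 0.19 with BAQ12, or 0.06 without BAQ12 replicate 3, and 0.08 with BAQ13, and the upper end of the 4 intervals was at most 1.55-fold.

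GAA was the one member whose RefSeq promoter held the CACGTG motif. Promoters of 300 bases (250 before and 50 after the start; RefSeq, GRCh38.p14) were at hand for 7 members in 8 windows, counting both of IDUA, and not for MANBA, NAGLU or SGSH. GAA held it 2 times, each within the same 10-base palindrome, GTCACGTGAC, with the CACGTG core starting 76 and 31 bases before the RefSeq start. The palindrome was in 0.353% of 34796 promoters and CACGTG in 7.2% (both motifs read the same on both strands, and the palindrome contains CACGTG). The 80 bases around these sites are shown beside those of NEU1, the lysosomal sialidase described below, whose window holds CACGTG once, 126 bases before its start and outside the palindrome. The CACGTG cores are in capitals, 5′ to 3′ on the strand of the gene, chr17:80101481-80101560 on the plus strand for GAA and chr6:31862907-31862986 on the minus strand for NEU1.
GAA: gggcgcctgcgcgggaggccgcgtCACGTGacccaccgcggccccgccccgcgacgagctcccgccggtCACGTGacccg
NEU1: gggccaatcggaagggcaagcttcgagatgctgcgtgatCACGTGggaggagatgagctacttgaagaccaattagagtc
A match is a description of these letters, not of a factor bound there.

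**Figure D2:**
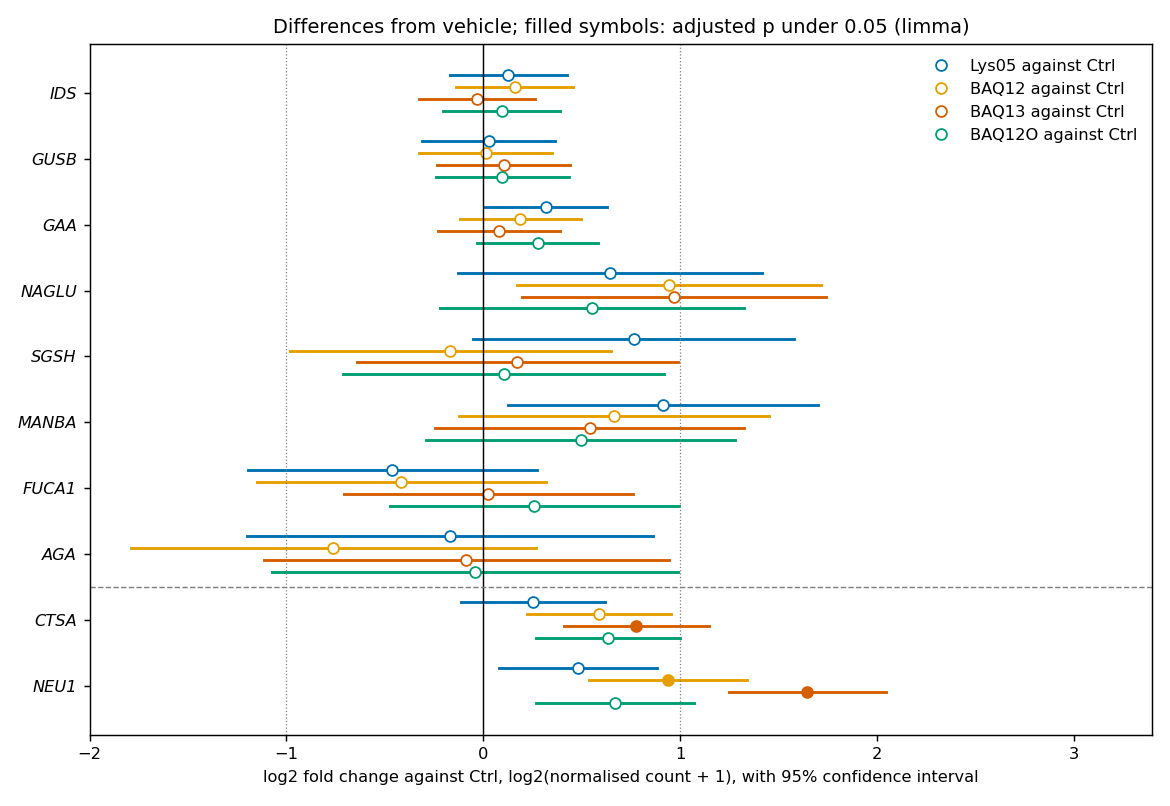
Log2 fold change against Ctrl (horizontal axis, log2(normalised count + 1)) with its 95% confidence interval, for the 8 members tested and, under the dashed line, CTSA and NEU1. Colours are the 4 agents, filled symbols have an adjusted p under 0.05 and dotted lines mark a 2-fold change. All member symbols are open, and the intervals of IDS, GUSB and GAA stay between the dotted lines.

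Each agent was compared with Ctrl to ask whether these mRNAs changed with it. Of the 8 members tested, limma called 0 with Lys05 (0.238% of all genes were called), 0 with BAQ12 (0.981%), 0 with BAQ13 (5.77%) and 0 with BAQ12O (1.48%). At these shares a count of 0 among 8 says nothing particular about the members. At an unadjusted p under 0.05 there were 2 members with Lys05 (MANBA and GAA), 1 with BAQ12 and 1 with BAQ13 (NAGLU in both) and 0 with BAQ12O, all higher than in Ctrl, where 4.98%, 11.8%, 19.4% and 12.8% of all genes passed. With counts in place of normalised values, the quasi-likelihood test of edgeR and DESeq2 also called 0 members, with 7 and 3 of the 80 tests (8 members, 10 comparisons) at an unadjusted p under 0.05 against 5 for limma. DESeq2 gave an adjusted p of NA for 37 of its 80 tests, which therefore could not be called. A test of any difference among the 5 groups called 0 members (3.03% of all genes), with the lowest limma adjusted p at 0.43 for NAGLU, so no genes of like pattern are named. The 4 comparisons share the Ctrl libraries.

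Members without overlap with Ctrl were counted in the same way. With Lys05 2 were higher (MANBA and SGSH; 8.24% of all genes), 0 with BAQ12 (7.75%), 2 with BAQ13 (NAGLU and MANBA; 14.5%) and 2 with BAQ12O (GAA and FUCA1; 12.5%). No member was lower without overlap, where all genes had 7.37%, 7.61%, 14.4% and 13.3%. The median log2 change of the 8 members was 0.22 with Lys05 (6 above 0, 2 below), 0.09 with BAQ12 (5 and 3), 0.09 with BAQ13 (6 and 2) and 0.18 with BAQ12O (7 and 1). Of all genes tested 50.4%, 49.8%, 49.5% and 49.5% were above 0, and their medians lay between −0.004 and 0.002.

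The 4 agents were also compared with each other, in 6 of 10 pairs over all 5 groups. Limma called 0 of 8 members for BAQ12 against Lys05 (0.162% of all genes), BAQ13 against Lys05 (2.66%), BAQ12O against Lys05 (0.248%), BAQ13 against BAQ12 (0.562%), BAQ12O against BAQ12 (0.229%) and BAQ12O against BAQ13 (1.39%), and 0 after adjustment over all 10 pairs together. SGSH had the largest difference, −0.93 for BAQ12 against Lys05 (SE 0.39, interval −1.75 to −0.12, limma adjusted p = 0.65, or 0.38 over all pairs), and it was the 1 member with an unadjusted p under 0.05 in these 6 pairs, in which 7.17%, 14.6%, 7.36%, 8.27%, 8.38% and 11.2% of all genes passed, in the same order. Without BAQ12 replicate 3 it was −0.77 (limma adjusted p = 0.99). Its 3 BAQ12 libraries lay below its 3 Lys05 libraries, as did those of 5.47% of all genes. FUCA1 was higher without overlap for BAQ12O against Lys05 (0.72, interval −0.01 to 1.45; 9.16% of all genes) and against BAQ12 (0.67, interval −0.06 to 1.41; 6.17% of all genes). The second of these rested on BAQ12 replicate 3, at 6.28 normalised counts, and was 0.16 without it (limma adjusted p = 0.88). GAA was higher without overlap for BAQ12O against BAQ13 (0.20, interval −0.11 to 0.50; 9.34% of all genes).

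For BAQ13 against BAQ12, which differ by the methylene unit, the interval of each of the 8 members included 0. IDS differed by −0.19 (interval −0.49 to 0.11), GUSB by 0.09 (−0.25 to 0.43), GAA by −0.11 (−0.42 to 0.20) and NAGLU by 0.03 (−0.75 to 0.80). The other intervals ran from −0.91 to 0.66 for MANBA, −0.29 to 1.18 for FUCA1, −0.48 to 1.16 for SGSH and −0.35 to 1.71 for AGA. As folds these intervals ran from 0.714 to 1.08 for IDS, the narrowest, and from 0.782 to 3.26 for AGA, the widest. Without BAQ12 replicate 3 several of the differences changed size or sign. IDS then differed by −0.30 (unadjusted p = 0.0486, limma adjusted p = 0.32), MANBA by −0.56 in place of −0.12 (limma adjusted p = 0.5) and FUCA1 by −0.07 in place of 0.44 (limma adjusted p = 0.94). GAA was then at 0.02, NAGLU at 0.25, SGSH at 0.18 in place of 0.34 and AGA at 0.40 in place of 0.68.

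Over the 6 pairs of agents all 18 intervals of IDS, GUSB and GAA lay within 1.5-fold in either direction, and against Ctrl 10 of 12 did, the exceptions both being GAA. Of the 50 intervals of AGA, FUCA1, MANBA, NAGLU and SGSH over the 10 comparisons, 13 lay within 2-fold and 0 within 1.5-fold. The half-width of the interval was 0.30 for IDS (85.9 mean reads per library), 0.31 for GAA (72.3), 0.34 for GUSB (61.9), 0.73 for FUCA1 (18.7), 0.77 for NAGLU (17.8), 0.79 for MANBA (9.9), 0.82 for SGSH (9.4) and 1.03 for AGA (7.4). The median of all genes tested was 0.42 at 54.9 mean reads. IDS, GAA and GUSB thus had narrower intervals than the median gene and the other 5 wider ones.

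**Figure D3:**
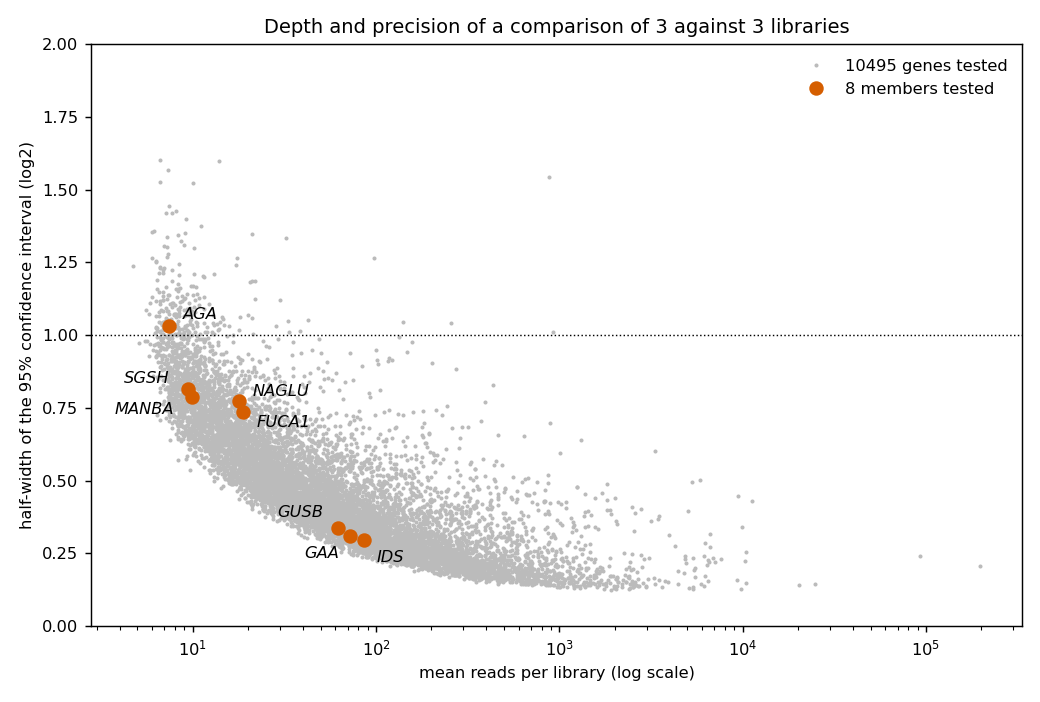
Half-width of the 95% confidence interval of a log2 difference between 2 groups of 3 (vertical axis) against mean reads per library (horizontal axis, log scale), for 10495 genes in grey and the 8 members tested in orange. The dotted line marks a half-width of 1, a 2-fold range on either side. AGA lies just above it at 7.4 reads, and IDS, GAA and GUSB lie near 0.3.

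Other genes of the same pathway were read from a list of 21 further enzymes and helpers of lysosomal glycan breakdown, of which 17 passed the filter (ARSB, ARSG, HYAL1 and HPSE did not). Called genes were 0 with Lys05 (0.238% of all genes were called), 1 higher with BAQ12 (NEU1; 0.981%), 2 higher with BAQ13 (NEU1 and CTSA; 5.77%) and 0 with BAQ12O (1.48%). No gene of this list was called lower with any agent. In limma 2, 2, 2 and 4 of the 17 had an unadjusted p under 0.05 with Lys05, BAQ12, BAQ13 and BAQ12O, where 4.98%, 11.8%, 19.4% and 12.8% of all genes passed, and edgeR and DESeq2 called the same genes. NEU1 is the lysosomal sialidase, which removes terminal sialic acid, and CTSA is the protective protein that holds it in an active complex. NEU1 had 36.5, 22.3 and 31.2 normalised counts in Ctrl and 87.7, 97.5 and 98.1 with BAQ13. Its log2 change with BAQ13 was 1.65 (SE 0.19, interval 1.25 to 2.05, limma adjusted p = 2.1e-05), and with BAQ12 0.94 (SE 0.19, limma adjusted p = 0.019). With BAQ12O it was 0.67 (limma adjusted p = 0.1) and with Lys05 0.48 (limma adjusted p = 0.83), neither of them called. BAQ13 was also higher than Lys05 (1.17, limma adjusted p = 0.0015) and BAQ12O was lower than BAQ13 (−0.98, limma adjusted p = 0.011). For BAQ13 against BAQ12 NEU1 was not called (0.71, limma adjusted p = 0.14). CTSA with BAQ13 was 0.78 (SE 0.17, limma adjusted p = 0.011). Its other values against Ctrl were not called: 0.64 with BAQ12O (limma adjusted p = 0.086), 0.59 with BAQ12 (limma adjusted p = 0.16) and 0.25 with Lys05. CTSA was not called for BAQ13 against BAQ12 either (0.19, limma adjusted p = 0.85). Without BAQ12 replicate 3 that difference was 0.43 (limma adjusted p = 0.056) and the BAQ12 value against Ctrl 0.345 (limma adjusted p = 0.29).

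In limma with all 15 libraries the rest of that list stayed uncalled in all 10 comparisons, the enzymes next in line to the members included. HGSNAT, the acetyltransferase that prepares heparan for NAGLU, had log2 changes of −0.34 to 0.23 against Ctrl, and GALNS, the galactose 6-sulphatase, −0.02 to 0.12. GLB1, β-galactosidase, had −0.42 to 0.11, and HEXA, a β-hexosaminidase subunit, −0.38 to 0.37. SUMF1, which activates all sulphatases, among them IDS and SGSH, had −0.39 to 0.14. The lowest of these values for HGSNAT, GLB1, HEXA and SUMF1 were with BAQ12, and without BAQ12 replicate 3 they were −0.03, −0.12, −0.32 and −0.59. SUMF1 was also called without that library for BAQ13 against BAQ12, at 0.73 (limma adjusted p = 0.039). With all libraries that difference was 0.525 (limma adjusted p = 0.49). The median of the 17 was 0.05 with Lys05, −0.17 with BAQ12 (0.02 without BAQ12 replicate 3), 0.10 with BAQ13 and 0.10 with BAQ12O. CACGTG was found in the promoters of 7 of the 16 genes of the 21 that had one, counted per gene over 19 windows. The share over all promoters, counted per window, was 7.2% of 34796. NEU1 and CTSA were among the 7, as were GALNS, SUMF1 and ARSK, not called against Ctrl, and ARSB and HPSE, which did not pass the filter. GALNS alone of these also held the palindrome GTCACGTGAC. Whether the motif goes with the calls was not tested.

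The 5 genes of mannose 6-phosphate tagging and its receptors (GNPTAB, GNPTG, NAGPA, M6PR and IGF2R) all passed the filter and 0 were called in any comparison by limma, edgeR or DESeq2. Of all genes limma called 0.162 to 5.77% by comparison. In limma 1, 0, 3 and 1 of them had an unadjusted p under 0.05 with Lys05, BAQ12, BAQ13 and BAQ12O against Ctrl, beside the same 4.98%, 11.8%, 19.4% and 12.8% of all genes. Of the 4 MiT/TFE factors TFE3 alone passed, with log2 changes of 0.11 to 0.33 against Ctrl, no call by any of these tools and an unadjusted p under 0.05 with BAQ13 alone, while TFEB held 40 reads, MITF 19 and TFEC 0 over all libraries.

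**Figure D4:**
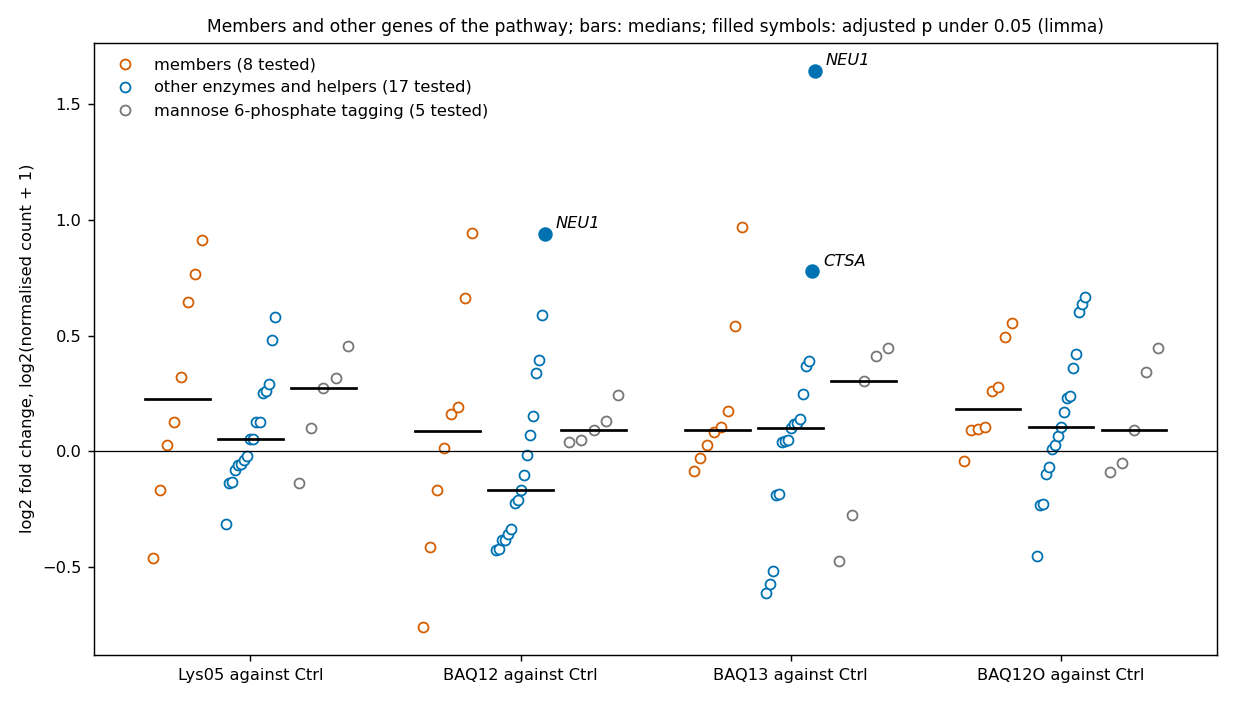
Log2 fold change against Ctrl (vertical axis, log2(normalised count + 1)) of each gene, for the 4 agents along the horizontal axis. Orange are the 8 members tested, blue the 17 other enzymes and helpers and grey the 5 genes of mannose 6-phosphate tagging. Bars are medians and filled symbols, NEU1 and CTSA, have an adjusted p under 0.05. The largest member value is 0.97, NAGLU with BAQ13.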

How the data were processed

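The authors deposited 1 value per gene and library, a normalised signal, in which the gene's reads had been scaled by the library's size factor. Per the labels' processing notes STAR, HTSeq and DESeq2 were used with GRCh38 (hg38), and versions are not given in the sources used here. The library kit is one for mRNA 3′ ends in the labels but a directional paired-end one in the methods. All values were whole multiples of the value of 1 read (100% within 0.01), so whole reads were recovered. The filterByExpr function of edgeR was applied to these reads by group (minimum count 10, total 15). Limma (version 3.58.1, R 4.3.3; lmFit and eBayes with trend) was fitted to log2(value + 1) over all 15 libraries without covariates, tested first on simulated data. The study's methods compared treated with control cells without covariates. edgeR (4.0.16) and DESeq2 (1.42.0) on the recovered reads were alternatives, as were TMM factors, pseudocounts of 0.1 and 5, no filter, the replicate number as a block, only the 6 libraries compared, and leaving out each library. Groups and replicate numbers came from the sample titles. Gene positions came from GENCODE 29, in which 56531 of 60107 identifiers are found, and promoters from RefSeq. All 10 members are named. Of the other lists the genes named are those called, the enzymes that act next to members, those whose promoters held CACGTG and those that failed the filter. Some genes of the lists are counted but not reported here by name. The members and lists were chosen with earlier results of these data known. Figures were drawn with matplotlib 3.10.9.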

Additional observations from a re-analysis of the deposited data

How the results depend on the processing

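The 23 alternatives were 8 other settings and 15 fits that each left out 1 library, and 22 of them gave a test over all 5 groups. In each of them 0 of the members that passed its filter were called, in the 10 comparisons and by that test, and leaving out a library gave 0 throughout (lowest 0, highest 0). MAN2B1 and IDUA had a value in 1 alternative alone, the one with no filter on low counts, and with only the 6 libraries compared AGA, MANBA and SGSH did not pass in some comparisons. With the replicate number as a block, 0 members were called in each comparison, and all genes called numbered 512 for BAQ13 against Ctrl in place of 606. The correlation of same-numbered libraries ran from −0.492 to 0.2, and in no comparison were all 3 above 0.1, so the numbers were not taken to pair libraries. Over 1843 tests of members in these alternatives the smallest adjusted p was 0.051. Of 80 log2 changes 42 kept their sign under every alternative and 38 did not. DESeq2 gave an adjusted p of NA for 37 of its 80 member tests. Without BAQ12 replicate 3 the genes called in BAQ13 against Ctrl rose from 606 to 1436 (limma), and with only the 6 libraries compared those in Lys05 against Ctrl from 25 to 114. NEU1 and CTSA were taken through the same alternatives, and the other pathway genes were read without BAQ12 replicate 3, both choices made after seeing the data. NEU1 with BAQ13 stayed called against Ctrl (1.46 to 1.80) and Lys05 (1.10 to 1.22) in all 23. With BAQ12 it was lost in 5 of 23 (0.75 to 1.09, limma adjusted p up to 0.4): with only the 6 libraries, and without Ctrl replicate 2 or 3 or BAQ12 replicate 1 or 2. NEU1 in BAQ12O against BAQ13 was lost in 4, without replicate 2 or 3 of either group (limma adjusted p up to 0.082), and CTSA with BAQ13 in 3, without Ctrl replicate 2 or 3 or BAQ13 replicate 1 (limma adjusted p up to 0.07). Depth limits AGA, SGSH and MANBA most, and IDUA and MAN2B1 entirely.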
